A study of Mus musculus with 8 samples.

Results

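The liver both stores iron and sets how much of it circulates, and it is a major site of heme synthesis outside the bone marrow. The expression of 10 iron and heme genes was examined in mouse liver: Hamp, Hamp2, Tfrc, Tfr2, Trf, Fth1, Ftl1, Slc40a1, Alas1 and Hmox1. They were found by symbol among the 46078 genes of the count table, and all 10 were present and passed the filter on low counts. RNA-seq was performed on livers of 5 wild-type (WT) mice and 3 mice with knockout of the splicing factor Rbfox2 (Rbfox2 KO), all drinking water with 30% (w/v) fructose for 22 weeks. The study's methods describe mice 8 weeks old at the start of the diet, with loxP sites in both copies of Rbfox2, which Cre from the albumin promoter deletes in hepatocytes. The methods give male mice unless stated otherwise, the WT mice there carry the loxP sites without Cre, and the labels say that livers came from fasted animals. Other liver cells keep Rbfox2, so a whole-liver sample is not free of it. In each of these bulk samples, fewer cells of a type and less RNA per cell cannot be told apart.

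Hepcidin, the product of Hamp, is a hormone made by hepatocytes that binds the iron exporter ferroportin (Slc40a1) and causes its degradation, so that less iron enters the blood. Bone morphogenetic protein (BMP) signalling and inflammatory signalling through STAT3 both raise Hamp transcription. Inside cells, iron regulatory proteins bind a short RNA hairpin, the iron-responsive element, when iron is scarce. In a 5′ untranslated region (UTR) this blocks translation, and in the 3′ UTR of Tfrc it stabilises the mRNA, so ferritin and ferroportin protein can change without a change in mRNA.

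Matches to the hairpin are shown because this control acts through it. A hairpin was searched for on the transcribed strand, with G-T pairs allowed. It was taken as a C, 5 stem bases, a loop of CAGTG and A, C or T, and 5 bases pairing with the stem. It was found in 4 of the 10 genes, and in 123 of 21901 coding genes (0.562%). Each sequence below is from GRCm38, 5′ to 3′, with the loop in capitals.
Fth1, 5′ UTR, chr19:9982732-9982760, plus strand: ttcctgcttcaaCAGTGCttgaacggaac
Ftl1, 5′ UTR, chr7:45459779-45459807, minus strand: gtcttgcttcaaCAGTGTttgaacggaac
Slc40a1, 5′ UTR, chr1:45925465-45925493, minus strand: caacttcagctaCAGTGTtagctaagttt
Tfrc, 3′ UTR, chr16:32631219-32631247, plus strand: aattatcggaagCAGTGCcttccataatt
Tfrc, 3′ UTR, chr16:32631598-32631626, plus strand: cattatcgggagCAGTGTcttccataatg
Tfrc, 3′ UTR, chr16:32631663-32631691, plus strand: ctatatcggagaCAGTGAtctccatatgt
Tfrc, 3′ UTR, chr16:32631710-32631738, plus strand: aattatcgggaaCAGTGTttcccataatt
The storage and export genes had 1 match each at the 5′ end, and the uptake receptor Tfrc had 4 matches at the 3′ end. These are matches to a pattern, and binding was not measured. An element that departs from the pattern would be missed.

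The promoters of the hepcidin genes are shown because the genes are close copies. Of the 10 genes, 7 had an entry in the RefSeq promoter table (GRCm38.p6). The last 120 bases before each RefSeq start are given 5′ to 3′ on the minus strand. For Hamp2 this window lies inside the gene span given below, 30922372 to 30924681, so the 2 annotations differ in its start. Capitals mark GGCGCC, the core of BMP-responsive elements, and TTCNNNGAA, the pattern of STAT sites.
Hamp, chr7:30944030-30944149: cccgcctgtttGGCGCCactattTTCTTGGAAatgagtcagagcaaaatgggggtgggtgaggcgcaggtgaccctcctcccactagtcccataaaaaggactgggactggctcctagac
Hamp2, chr7:30924182-30924301: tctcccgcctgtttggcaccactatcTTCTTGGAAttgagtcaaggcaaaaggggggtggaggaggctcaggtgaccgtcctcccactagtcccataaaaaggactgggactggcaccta
The aligned windows were identical at 106 of 123 columns (86.2%). GGCGCC began at position -109 from the start of Hamp and had no match in the Hamp2 window. TTCNNNGAA began at -97 in Hamp and at -94 in Hamp2. In the 250 bases before the start, on both strands, GGCGCC occurred in 9.59% and TTCNNNGAA in 7.02% of 32851 promoters. Among the 7 genes, GGCGCC also matched at -89 from a start of Tfrc, and TTCNNNGAA at -171 from a start of Alas1. The part of these matches in the level of any gene was not tested.

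The samples were checked first. Total counts were between 24829693 and 37823155, so that 3 counts, taken as the smallest detectable level, equalled 0.0839 to 0.118 CPM, the counts scaled to a common library size. Rbfox2 fell from 18.9 ± 3.39 CPM (SD, n = 5) in WT to 9.28 ± 2.84 CPM (SD, n = 3) in Rbfox2 KO. An exact permutation test gave an unadjusted two-sided p of 0.0179, the smallest the design allows. By edgeR its unadjusted p was 0.000598, and its p adjusted over all tested genes was 0.328 (log2 fold change -1.03, and -0.85 without Rbfox2 KO 1). All 5 hepatocyte markers were detected in every sample. Rbfox2 KO 1 stood apart, with 12 pancreatic acinar markers that summed to 458 CPM against 4.78 to 17.1 CPM in the other samples. Its hepatocyte marker sum was the lowest, at 62342 CPM against 70277 to 77273 CPM in the others, and its erythroid marker sum was the highest, at 2107 CPM against 741 to 1460 CPM. The log2 fold change of each iron or heme gene described is therefore given with and without this sample. Summed skeletal muscle markers also set samples apart, at 262 CPM in WT 4, 368 CPM in WT 5 and 216 CPM in Rbfox2 KO 1, while the remaining samples had 1.22 to 44.8 CPM. WT 5 was the lowest sample for Hamp, Trf and Ftl1. The part of these transcripts in the results was not tested.

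None of the 10 genes passed an adjusted p of 0.05 between genotypes. Hmox1 and Hamp had the highest positive log2 fold changes, and Alas1 the lowest, but differences were mostly within the spread of the samples. By edgeR, 0 of the 10 genes passed, against a background of 0 of 14654 tested genes (0%). At an unadjusted p under 0.05 the count was 1 of 10, which was Hmox1 and was higher, against 694 genes (4.74%), 353 of them higher (2.41%) and 341 lower (2.33%). DESeq2 also called 0 of the 10, against 59 of 14420 genes (0.409%), and found 2 of the 10 at an unadjusted p under 0.05, against 715 of those genes (4.96%). In Rbfox2 KO 7 of the 10 were higher, where 50.2% of all tested genes were, and the median log2 fold change was 0.13 against 0.00095 over all tested genes. The groups did not overlap for 1 of the 10, Ftl1, against 3.71% of all tested genes, with every Rbfox2 KO sample above in 1.89% and below in 1.82%. Scaling by library totals gave all tested genes a median of 0.12 and placed 9 of the 10 higher, with 2 at an unadjusted p under 0.05 against a background of 3.17%. Without Rbfox2 KO 1, 0 of the 10 had an unadjusted p under 0.05, against a background of 3.83%, and without Rbfox2 KO 2 there were 2, Alas1 and Hmox1, against a background of 6.46%.

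**Figure D1:**
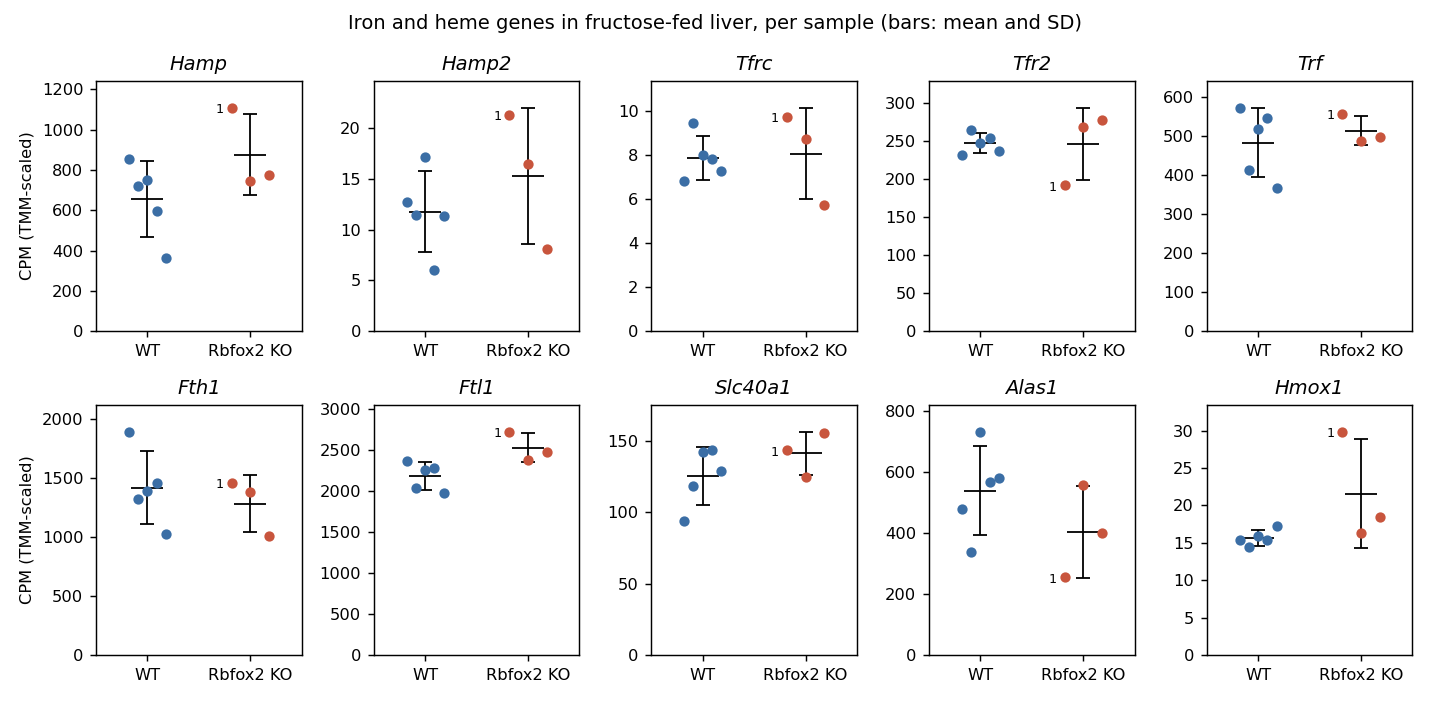
TMM-scaled CPM (vertical axes, each from 0) of the 10 iron and heme genes in 5 WT (blue) and 3 Rbfox2 KO (red) livers, with points for samples, horizontal lines for means, bars for SD, and Rbfox2 KO 1 marked 1. The groups overlap in every panel but that of Ftl1, and Rbfox2 KO 1 is the top point for 5 genes and the bottom point for 2.

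Levels were compared between genes per length, as CPM per 1000 exon bases, in WT livers. Ftl1 led at 1629 ± 126 (SD, n = 5), followed by Hamp at 1602 ± 459.5 (SD, n = 5). Ftl1 exceeded Hamp in 2 of 5 samples, so these did not differ beyond their spread. Fth1 followed at 409 ± 90.3 (SD, n = 5) and Trf at 146 ± 26.7 (SD, n = 5), each clear of its neighbour above.
Alas1 was at 87.3 ± 23.5 (SD, n = 5) and Tfr2 at 57.0 ± 3.03 (SD, n = 5). The range of Alas1 overlapped those of both Trf and Tfr2. Hamp2 at 20.2 ± 6.84 (SD, n = 5) and Slc40a1 at 13.96 ± 2.28 (SD, n = 5) also overlapped. Hmox1 at 8.95 ± 0.597 (SD, n = 5) and Tfrc at 1.27 ± 0.161 (SD, n = 5) were the lowest of the 10, with ranges clear of the gene above. Exon length here is that of all annotated transcripts joined, which lowers the value of a gene whose long transcripts are little used. It was 3469 bases for Fth1 and 9000 for Slc40a1, whose longest coding transcripts have 1494 and 3370. For Hamp both lengths were 410 bases. The order of the genes and the gaps between neighbours therefore hold for this length only, among them Fth1 below Hamp and Slc40a1 below Hamp2. The level of Trf has a further limit from a gene that overlaps it, given below.

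**Figure D2:**
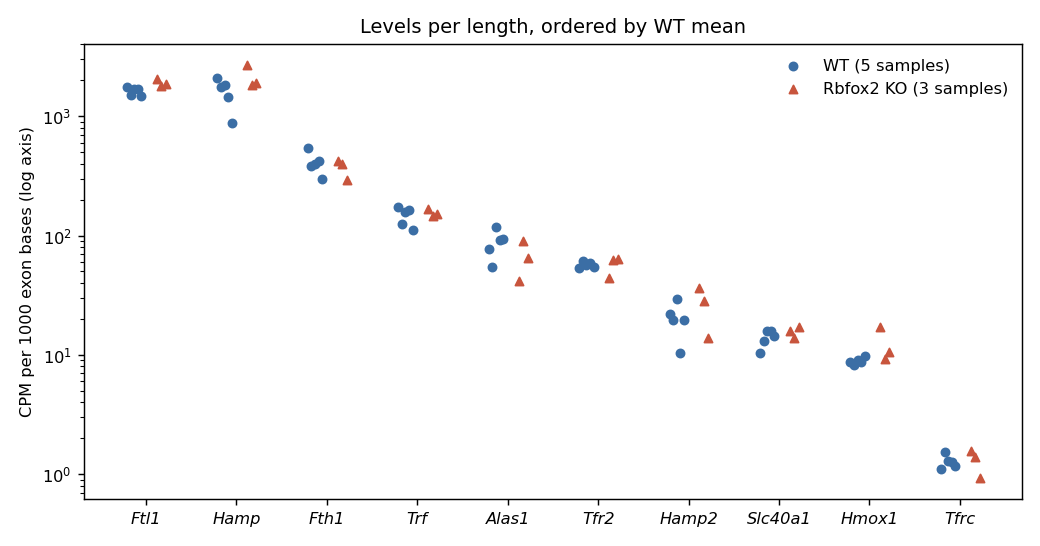
CPM per 1000 exon bases (log axis) of the 10 genes in order of WT mean, with 1 point per sample for WT (circles) and Rbfox2 KO (triangles). Levels run from 1629 for Ftl1 to 1.27 for Tfrc in WT, and neighbouring genes overlap at Ftl1 and Hamp, at Trf, Alas1 and Tfr2, and at Hamp2 and Slc40a1.

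The spread among the WT mice also differed between genes. The coefficient of variation of CPM was lowest for Tfr2 at 5.31%, which 8.2% of 8760 genes at 5 CPM or more fell under, and the median of those genes was 11.7%. It was highest for Hamp at 28.7% and Hamp2 at 33.9%, above 95.1% and 97.2% of genes. Alas1, at 27.0%, exceeded 94.1% of genes.

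Hamp (ENSMUSG00000050440, chromosome 7 from 30942368 to 30944032, minus strand) encodes hepcidin. It had 853, 722, 749, 597 and 362 CPM in WT livers, against 1107, 745 and 776 CPM in Rbfox2 KO livers. The highest value was in Rbfox2 KO 1 and the lowest in WT 5, and the other Rbfox2 KO values lay inside the WT range. The mean was 657 ± 188 CPM in WT (SD, n = 5) against 876 ± 201 CPM in Rbfox2 KO (SD, n = 3). Its log2 fold change of 0.42 ± 0.25 (SE) had an edgeR adjusted p of 0.99997 and an exact permutation p of 0.179. It was 0.21 without Rbfox2 KO 1.

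Hamp2 (ENSMUSG00000056978, chromosome 7 from 30922372 to 30924681, minus strand) is the mouse paralogue of Hamp. It had 12.7, 11.4, 17.2, 6.05 and 11.4 CPM in WT livers, against 21.3, 16.5 and 8.11 CPM in Rbfox2 KO livers. Rbfox2 KO 1 was again the highest, and the groups overlapped. On the log2 scale the difference was 0.38 ± 0.36 (SE; exact permutation p = 0.375), and 0.06 without Rbfox2 KO 1. Hamp made up 98.1 ± 0.795% of the counts of both genes in WT (SD, n = 5) against 98.3 ± 0.592% in Rbfox2 KO (SD, n = 3), a difference with an exact permutation p of 0.75. Without Rbfox2 KO 1 the difference was 0.261 percentage points. The Hamp to Hamp2 count ratio ran from 31.9 to 98.7 among WT samples. Of the 50-base windows of the Hamp transcript 16.6% also occur in Hamp2. Over all samples Hamp had 178055 counts and Hamp2 had 3135, so a small share of Hamp reads assigned to Hamp2 would be large beside the Hamp2 count. The level of Hamp2, its fold change and the Hamp to Hamp2 ratio are uncertain for that reason.

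Tfr2 (ENSMUSG00000029716, chromosome 5 from 137569840 to 137587481, plus strand) encodes a transferrin receptor that hepatocytes use to sense iron-loaded transferrin and that promotes hepcidin expression. It had 232, 264, 247, 255 and 236 CPM in WT livers, against 192, 269 and 278 CPM in Rbfox2 KO livers. Rbfox2 KO 1 was below every WT sample and the other Rbfox2 KO samples were above every WT sample. The means gave a log2 fold change of -0.0034 ± 0.13 (SE; edgeR adjusted p = 0.99997), which turned to 0.14 without Rbfox2 KO 1.

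Among other genes of hepcidin control, 19 of 20 were tested, and by edgeR 0 rose and 0 fell at the adjusted threshold. In Rbfox2 KO 13 were higher and 6 lower, and the median log2 fold change was 0.09, or 0.11 without Rbfox2 KO 1. Bmp6, the BMP ligand that liver endothelium makes in response to iron, had the smallest p of this list. It had 3.14, 4.27, 3.23, 4.19 and 3.76 CPM in WT livers, against 4.33, 4.48 and 5.06 CPM in Rbfox2 KO livers. The groups did not overlap, as for 3.71% of all tested genes. Its log2 fold change was 0.31 ± 0.15 (SE; edgeR adjusted p = 0.99997), and 0.35 without Rbfox2 KO 1.
Further genes of this route were looked up after their values were seen. Tmprss6, a protease that lowers hepcidin expression, was at 289.5 ± 6.52 CPM in WT (SD, n = 5) against 280.0 ± 43.3 CPM in Rbfox2 KO (SD, n = 3). Id1 and Smad7, target genes of BMP signalling, had log2 fold changes of 0.25 ± 0.27 (SE) and -0.20 ± 0.40 (SE), and of 0.29 and -0.22 without Rbfox2 KO 1. For Tmprss6 it was -0.05, and 0.06 without Rbfox2 KO 1. Across all 8 samples neither target gave a correlation with Hamp that passed. Pearson's r of log2 CPM was -0.10 with Id1 (exact permutation p = 0.828, adjusted over 6 pairs 0.828; Spearman's rho = 0.05, p = 0.935) and -0.46 with Smad7 (exact permutation p = 0.278, adjusted 0.418; rho = -0.60, p = 0.132). Without the samples farthest out in the target, r was -0.12 and -0.81. Hamp with Hamp2 gave r = 0.45 (exact permutation p = 0.256, adjusted 0.418; rho = 0.60, p = 0.132), and 0.14 without WT 4 and Rbfox2 KO 1.

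Summed acute phase markers, which rise in inflammation, were 268 to 584 CPM in WT livers, against 463, 327 and 655 CPM in Rbfox2 KO livers (exact permutation p = 0.589). Fgl1 made up most of the sum, at 318 CPM of a mean of 423 CPM in WT, and was lower in Rbfox2 KO with a log2 fold change of -0.28. The other 5 of the 6 genes were higher, 0 passed by edgeR, and the median log2 fold change of the list was 0.61, or 0.23 without Rbfox2 KO 1. Saa2 and Saa1, serum amyloid A genes, were at 1.74 ± 0.79 (SE) and 0.96 ± 0.64 (SE) on the log2 scale. The sample with the lowest Hamp, WT 5, had the lowest of these sums, and the sample with the highest Hamp, Rbfox2 KO 1, did not have the highest.

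Iron uptake was followed through Tfrc and Trf. Tfrc (ENSMUSG00000022797, chromosome 16 from 32608920 to 32632794, plus strand) encodes transferrin receptor 1, the main route of transferrin-bound iron into cells. It had 6.80, 9.44, 7.98, 7.79 and 7.27 CPM in WT livers, against 9.73, 8.69 and 5.73 CPM in Rbfox2 KO livers. The Rbfox2 KO samples held both the highest and the lowest value. The small difference of 0.03 ± 0.18 on the log2 scale (SE; exact permutation p = 0.857) turned to -0.13 without Rbfox2 KO 1.
Trf (ENSMUSG00000032554, chromosome 9 from 103204001 to 103230444, minus strand) encodes transferrin, the iron carrier of plasma. It had 572, 413, 519, 546 and 367 CPM in WT livers, against 556, 486 and 499 CPM in Rbfox2 KO livers, all inside the WT range. Its log2 fold change was 0.09 ± 0.16 (SE; exact permutation p = 0.625), and 0.02 without Rbfox2 KO 1. Of its 50-base windows 79.8% lie also in Gm20425, which overlaps it on the same strand and had 0 counts in all samples. How reads that overlap both genes were counted is not given in the sources used here. Such reads may have been left out, so the level of Trf and its place in the order of levels are uncertain.

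Of 10 other uptake genes tested, 0 passed in either direction by edgeR, with 4 higher and 6 lower and a median log2 fold change of -0.10, or -0.05 without Rbfox2 KO 1. Lcn2, an iron-siderophore carrier of the innate immune response, had the smallest p of the list. It had 3.99, 3.65, 2.64, 5.24 and 3.64 CPM in WT livers, against 11.6, 2.36 and 6.01 CPM in Rbfox2 KO livers. Rbfox2 KO 1 was the highest of all samples and Rbfox2 KO 2 the lowest. For Lcn2 the log2 fold change was 0.80 ± 0.42 (SE; edgeR adjusted p = 0.99997), and 0.14 without Rbfox2 KO 1.

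Ferritin, the iron store, is built of heavy and light chains. Fth1 (ENSMUSG00000024661, chromosome 19 from 9980598 to 9985098, plus strand) encodes the heavy chain, which oxidises iron. It had 1895.5, 1326.5, 1391, 1462 and 1027 CPM in WT livers, against 1459.7, 1382 and 1011 CPM in Rbfox2 KO livers. WT 1 was the highest and Rbfox2 KO 3 the lowest. For Fth1 the log2 fold change was -0.15 ± 0.20 (SE; exact permutation p = 0.536), -0.25 without Rbfox2 KO 1, and 0.00104 when scaled by library totals.

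Ftl1 (ENSMUSG00000050708, chromosome 7 from 45457944 to 45459884, minus strand) encodes the light chain. It had 2366, 2034, 2257, 2280.0 and 1975 CPM in WT livers, against 2725, 2376 and 2480.1 CPM in Rbfox2 KO livers. Every Rbfox2 KO sample was above every WT sample, by a gap of 10.6 CPM between the nearest samples. Its log2 fold change of 0.21 ± 0.13 (SE) had an unadjusted edgeR p of 0.125 and an adjusted p of 0.99997. An exact permutation test on CPM, not adjusted for the number of genes, gave p = 0.0357. The log2 fold change was 0.15 without Rbfox2 KO 1. Of the 50-base windows of Ftl1, 78.9% occur also in other genes, among them Ftl1-ps1, which held 16.8% as many counts as Ftl1. When Ftl1 was summed with the 5 related loci that share most with it, an alternative chosen after the data were seen, the lowest Rbfox2 KO sum was 2862 CPM and the highest WT sum 2884 CPM, so the groups overlapped. They overlapped also when Ftl1 was scaled by library totals.

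The ratio of the mRNAs of both chains within a sample does not depend on scaling. It still carries the limit of sequence shared between Ftl1 and the related loci, and was not recomputed with them. The Fth1 to Ftl1 count ratio was 0.801, 0.652, 0.616, 0.641 and 0.520 in WT, and 0.536, 0.582 and 0.407 in Rbfox2 KO. The groups overlapped, with means of -0.64 ± 0.22 (SD, n = 5) and -0.99 ± 0.27 (SD, n = 3) on the log2 scale (exact permutation p = 0.107). The p was 0.0286 without WT 5, the smallest that those samples allow, and 0.143 without Rbfox2 KO 1.
Across the 8 samples, Tfrc and Fth1, which iron regulatory proteins control in opposite ways, gave r = 0.32 (exact permutation p = 0.450, adjusted over 6 pairs 0.539; rho = 0.17, p = 0.703), and -0.27 without Rbfox2 KO 1 and 3. Of 6 other storage and sensing genes tested, 0 passed by edgeR, 5 were higher and 1 lower. Fbxl5, the iron sensor that degrades iron regulatory protein 2, had the smallest p, with a log2 fold change of 0.15 ± 0.09 (SE; edgeR adjusted p = 0.99997), and 0.14 without Rbfox2 KO 1.

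Slc40a1 (ENSMUSG00000025993, chromosome 1 from 45908068 to 45926523, minus strand) encodes ferroportin, the only known cellular iron exporter. It had 93.9, 119, 142, 144 and 129 CPM in WT livers, against 144, 125 and 156 CPM in Rbfox2 KO livers. Only Rbfox2 KO 3 was above the WT range. Between the groups the log2 fold change was 0.17 ± 0.15 (SE; exact permutation p = 0.321), and 0.16 without Rbfox2 KO 1. Of the other 2 export genes 0 passed by edgeR and both were higher. Cp, the plasma ferroxidase ceruloplasmin, was at 587 ± 60.5 CPM in WT (SD, n = 5) against 682 ± 54.9 CPM in Rbfox2 KO (SD, n = 3), which gave a log2 difference of 0.22 ± 0.12 (SE; edgeR adjusted p = 0.99997), or 0.15 without Rbfox2 KO 1.

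**Figure D3:**
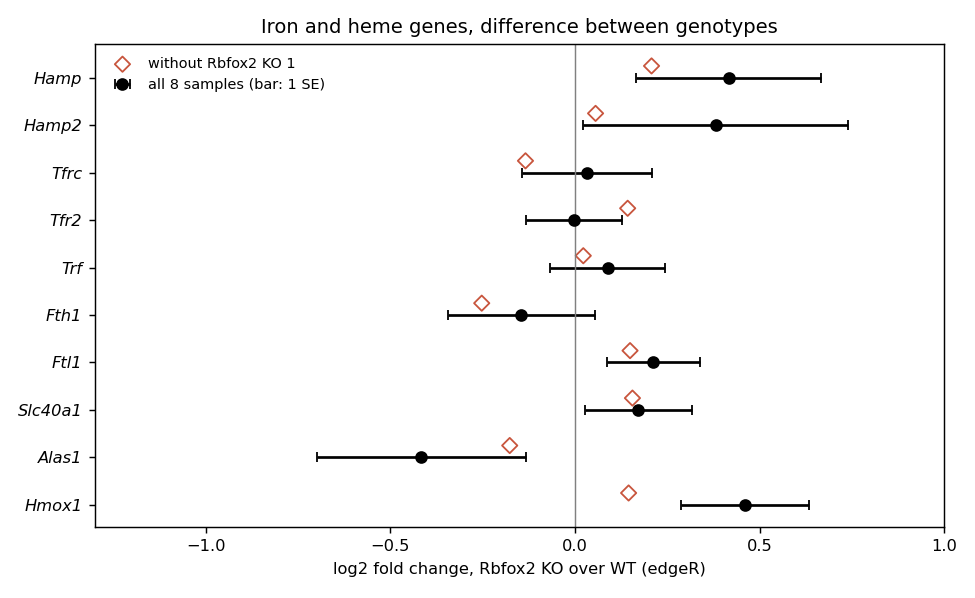
Log2 fold change of Rbfox2 KO over WT by edgeR for the 10 genes (black points, bars of 1 SE), and the same without Rbfox2 KO 1 (open diamonds). Leaving out that sample moved Hmox1 from 0.46 to 0.14 and Hamp from 0.42 to 0.21, and turned the sign for Tfrc and Tfr2.

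Heme synthesis begins with Alas1 (ENSMUSG00000032786, chromosome 9 from 106233455 to 106248654, minus strand), the rate-limiting enzyme in liver, which heme represses and fasting induces. It had 479, 337, 733, 569 and 579 CPM in WT livers, against 255, 558 and 399.6 CPM in Rbfox2 KO livers. Rbfox2 KO 1 was the lowest and WT 3 the highest, and the other Rbfox2 KO samples were inside the WT range. The mean was 539 ± 145 CPM in WT (SD, n = 5) against 404 ± 151 CPM in Rbfox2 KO (SD, n = 3). Its log2 fold change of -0.42 ± 0.28 (SE) had an edgeR adjusted p of 0.99997 and an exact permutation p of 0.232. Without Rbfox2 KO 1 it was -0.18, and without Rbfox2 KO 2 it was -0.72 with an edgeR adjusted p of 0.702. Alas1 overlaps the antisense gene 4930500F10Rik, and whether the counting used strand is not given in the sources used here.

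The 7 enzymes after Alas1, from Alad to Fech, were looked at as a group after their values were seen. By edgeR 0 of 7 had an unadjusted p under 0.05, 1 was higher and 6 lower, and log2 fold changes lay between -0.13 and 0.06. Without Rbfox2 KO 1, Alad was at 0.08, Cpox turned to 0.07 and Uros was at -0.32. The other enzymes then lay between -0.05 and -0.00075. Per 1000 exon bases in WT, Alad was at 47.0 CPM and Ppox at 2.52 CPM, the extremes of the group, and Alas1 was above all 7. Of all 15 other heme synthesis genes, 0 passed by edgeR, with 5 higher, 10 lower and a median log2 fold change of -0.04. Without Rbfox2 KO 1 the median was -0.0067. Slc25a37, the mitochondrial iron importer mitoferrin 1, had the smallest p, with a log2 fold change of -0.25 ± 0.16 (SE; edgeR adjusted p = 0.99997), and -0.09 without Rbfox2 KO 1.
Ppargc1a, a coactivator that drives Alas1 in fasting, had 5.87, 6.95, 4.11, 6.50 and 7.72 CPM in WT livers, against 8.63, 5.19 and 10.2 CPM in Rbfox2 KO livers. It had the smallest p of the 8 regulators of Alas1 and Hmox1, of which 0 passed by edgeR (log2 fold change 0.37 ± 0.24 SE, edgeR adjusted p = 0.99997, and 0.31 without Rbfox2 KO 1). Across the 8 samples Ppargc1a and Alas1 gave r = -0.69 (exact permutation p = 0.0602, adjusted over 6 pairs 0.181; rho = -0.60, p = 0.132), which did not pass. It was -0.61 without WT 3 and Rbfox2 KO 3.

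Hmox1 (ENSMUSG00000005413, chromosome 8 from 75093621 to 75100589, plus strand) encodes heme oxygenase 1, which breaks heme down and releases its iron, and which is high in macrophages that clear red cells. It had 15.4, 14.4, 15.9, 15.3 and 17.3 CPM in WT livers, against 29.9, 16.3 and 18.5 CPM in Rbfox2 KO livers. Rbfox2 KO 1 was far above all others, Rbfox2 KO 3 was just above the WT range and Rbfox2 KO 2 inside it. The mean was 15.7 ± 1.05 CPM in WT (SD, n = 5) against 21.5 ± 7.28 CPM in Rbfox2 KO (SD, n = 3). Its log2 fold change of 0.46 ± 0.17 (SE) had an unadjusted edgeR p of 0.0240, an adjusted p of 0.954 and an exact permutation p of 0.0357. It was 0.14 without Rbfox2 KO 1 and 0.43 without WT 2, and in both cases the unadjusted p was no longer under 0.05.

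Markers of Kupffer cells, the macrophages of the liver, were set beside Hmox1. All 8 were detected in every sample, and 7 of 8 were higher in Rbfox2 KO, as were 50.2% of all tested genes. Their sum was 236 to 267 CPM in WT livers, against 324, 246 and 324 CPM in Rbfox2 KO livers (exact permutation p = 0.0714). By edgeR 0 of 8 passed the adjusted threshold, and 2, Cd5l and Marco, had an unadjusted p under 0.05, against 4.74% of all tested genes. Cd5l was at 72.3 CPM on average in WT, against 115, 73.2 and 105 CPM in Rbfox2 KO. In Rbfox2 KO 1, Adgre1, C1qa, Cd5l and Marco were above the WT range. Clec4f, Vsig4 and Csf1r were inside it there, and Timd4, at 3.73 CPM, was the lowest of all samples. Across the 8 samples the sum and Hmox1 gave r = 0.79 on log2 CPM (exact permutation p = 0.00508, adjusted over 6 pairs 0.0305), while the rank correlation did not pass (rho = 0.71, exact permutation p = 0.0576, adjusted 0.198). Without Rbfox2 KO 1 and 3, r was 0.56, so the relation rested on those samples. No correlation was computed within WT, which has 5 samples. The part of Kupffer cells, or of the erythroid transcripts of Rbfox2 KO 1, in the level of Hmox1 was not tested.

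The Hmox1 to Alas1 count ratio sets the mRNA of a heme breakdown enzyme against that of a heme synthesis enzyme. In a bulk sample it can also follow the mixture of cells, and the part of that mixture was not tested. The ratio was 0.0321, 0.0429, 0.0217, 0.0270 and 0.0299 in WT, and 0.117, 0.0293 and 0.0462 in Rbfox2 KO. Rbfox2 KO 1 and 3 were above the WT range and Rbfox2 KO 2 was inside it. The log2 ratio was -5.06 ± 0.36 in WT (SD, n = 5) against -4.21 ± 1.02 in Rbfox2 KO (SD, n = 3) (exact permutation p = 0.107). Without Rbfox2 KO 1 the difference of 0.85 became 0.30 (exact permutation p = 0.429). Without Rbfox2 KO 2 it became 1.30 (exact permutation p = 0.0476, the smallest that those samples allow).

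Of the 8 other genes of heme breakdown and transport, 0 passed by edgeR and 1 had an unadjusted p under 0.05. This was Flvcr2, which encodes a membrane transporter. It had 3.69, 2.62, 2.14, 1.99 and 3.02 CPM in WT livers, against 5.58, 4.05 and 4.81 CPM in Rbfox2 KO livers. Every Rbfox2 KO sample was above every WT sample, as for 1.89% of all tested genes. For Flvcr2 the difference was 0.84 ± 0.21 on the log2 scale (SE; edgeR adjusted p = 0.544), and 0.71 without Rbfox2 KO 1. Of 5 target genes of NRF2, a factor that also induces Hmox1, 0 passed by edgeR, and Nqo1 had the smallest p, with a log2 fold change of 0.17 ± 0.17 (SE; edgeR adjusted p = 0.99997), and 0.12 without Rbfox2 KO 1. Over all 73 other iron and heme genes tested, 41 were higher and 32 lower, with a median log2 fold change of 0.02, 0 passed, and the groups did not overlap for 2 genes, Flvcr2 and Bmp6. Without Rbfox2 KO 1, 38 were higher and 35 lower, with a median of 0.01. The count at an unadjusted p under 0.05 was 1 of 73 with all samples, against a background of 4.74%. It was 2 without Rbfox2 KO 1, against a background of 3.83%, and 6 without Rbfox2 KO 2, where the background was 6.46%. Those 6 were Blvrb, Flvcr2, Hpx, Id1, Lcn2 and Ppargc1a, and they were named after their values were seen.

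**Figure D4:**
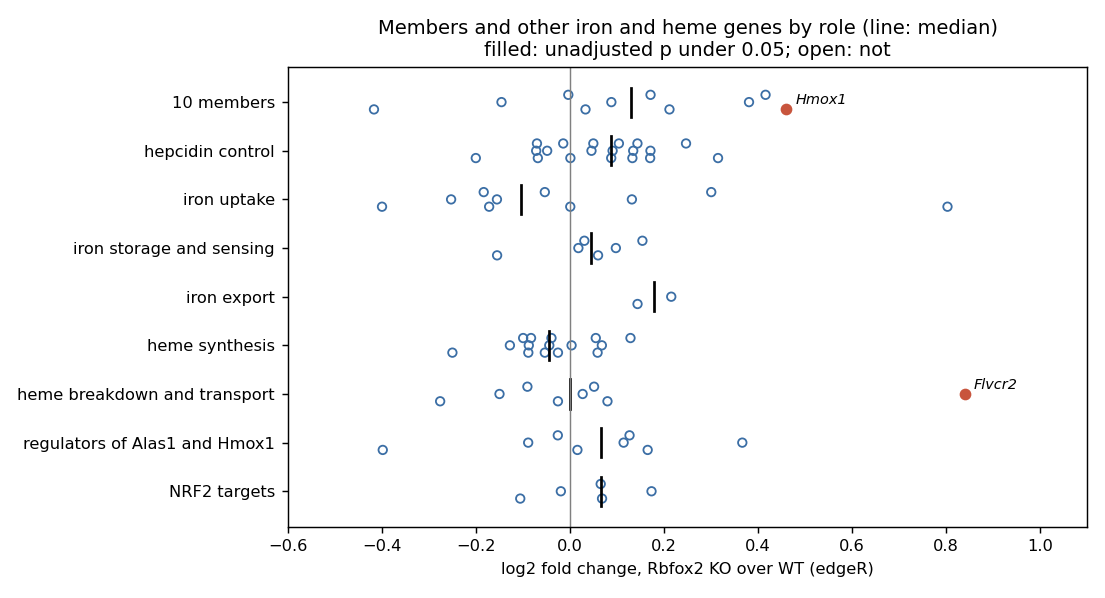
Log2 fold change of Rbfox2 KO over WT by edgeR for the 10 genes and for 8 lists of other iron and heme genes, with 1 point per gene, filled where the unadjusted p is under 0.05, and a line at each median. Only Hmox1 and Flvcr2 are filled, and list medians lie between -0.10 and 0.18.

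Rbfox2 KO 1 was the most extreme sample for 7 of the 10 genes, the highest for Hamp, Hamp2, Tfrc, Ftl1 and Hmox1 and the lowest for Tfr2 and Alas1, and it was the extreme sample for 34.5% of all tested genes. WT 1 was the extreme for 3 of 10 against 39.8% of all genes, and Rbfox2 KO 2 for 0 of 10 against 18.3%.

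The genes whose pattern over the 8 samples was most like each of 4 members were found by Pearson's r of log2 CPM. For Hamp they were Lemd2 (r = 0.987) and Cenpl (r = 0.974). For Tfrc they were 0610040J01Rik (r = 0.944) and Mapk11 (r = 0.941), and for Alas1 Phf20 (r = 0.970) and Zfp119b (r = 0.946). For Hmox1 they were S100a8 (r = 0.978), a gene of neutrophils and monocytes, and Tmem86a (r = 0.970). S100a8 was at 1.44 CPM in Rbfox2 KO 1 and between 0.350 and 0.503 CPM in the other samples, so this likeness also turned on Rbfox2 KO 1. These genes were the closest of 14654, and each r is a description only.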

How the data were processed

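Poly(A)-enriched RNA of 8 mouse livers was sequenced, and the authors deposited unnormalised counts of reads, 1 row per Ensembl gene. The authors aligned reads to GRCm38 with TopHat2 2.0.11 as strand-specific libraries and counted them with featureCounts. The strand setting of that step and its treatment of reads that align to several places are not given in the sources used here. Groups came from the labels, and each sample was taken as 1 mouse. The labels do not say that each came from a different animal, so p-values measure the spread between these samples, which may be technical. Every pair within a group differed by more than counting noise, so none was treated as a repeat deposit of another. This does not show that samples are separate animals.

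Symbols were found for 45229 of 46078 genes. edgeR 4.0.16 in R 4.3.3 was run with filterByExpr (14654 genes kept), TMM scaling, the robust quasi-likelihood F test and Benjamini-Hochberg adjustment at 0.05 over all tested genes. The SE is the log2 fold change over the square root of F. CPM are TMM-scaled. For single values, the difference of means was tested by exact permutation over 56 splits, two-sided. With 1 sample left out there were fewer splits, so the smallest possible p was larger and depended on the group of that sample. Alternatives were other scalings and filters, DESeq2 1.42.0, limma-voom (limma 3.58.1), a replicate block, and each sample left out. The fit was tested on simulated data. Sequences were aligned with Biopython 1.88. Each SD and SE holds the spread between samples, while the floor of 3 counts covers counting error only.

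The members and gene lists were chosen with earlier results of these data known. Named were the 10 members, from each list of other iron and heme genes those with an unadjusted p under 0.05 or else the smallest p, the 2 genes most like Hamp, Tfrc, Alas1 and Hmox1, and Rbfox2.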

Additional observations from a re-analysis of the deposited data

Results flagged for a closer look

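The summed CPM of 12 pancreatic acinar markers was far higher in WT 1 than in the rest of its group. It reached 17.1 CPM there and 4.78 to 5.29 CPM elsewhere in WT, and the distance to the nearest sample was 0.959 of the group's range. Of 29 values examined in the WT group this was the one past the limit of 0.71 for 5 samples, and chance would give about 1.45. WT 1 had the highest Fth1 and Trf and the lowest Slc40a1 of the 8 samples.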

How the results depend on the processing

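By edgeR, 0 of 14654 genes passed, with 694 at an unadjusted p under 0.05. The count was 6 with no filter on low counts and 59 by DESeq2, and 0 under the other alternatives. No member passed under any alternative run. Of the member log2 fold changes, 65 of 70 under other settings and 74 of 80 with 1 sample left out kept their sign. Tfrc was -0.0080 by limma-voom and -0.0253 with the replicate block, and between -0.13 and 0.23 with 1 sample left out. Tfr2 was 0.0792 with library totals and 0.00964 with no filter, and between -0.10 and 0.14 with 1 sample left out. Fth1 was 0.00104 with library totals. With 1 sample left out, the difference in the Hamp share ran from -0.17 to 0.40 percentage points, that in the log2 Fth1 to Ftl1 ratio from -0.45 to -0.20, and that in the log2 Hmox1 to Alas1 ratio from 0.30 to 1.30. The gap between the lowest Rbfox2 KO and the highest WT value of Ftl1, 10.6 CPM, became -103 CPM with library totals and -22.0 CPM when summed with related loci. Both were chosen after the data were seen. With library totals Hamp and Hmox1 both had an unadjusted edgeR p under 0.05, as had 465 of 14654 genes (3.17%), and neither passed after adjustment. The causes were not tested.

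Equal sample numbers were not shown to pair the mice, since the deviations of same-numbered samples correlated at 0.163, 0.0484 and 0.170. With the replicate block, on the 3 shared numbers, 0 genes and 0 members passed, 739 genes had an unadjusted p under 0.05, 3 of the other iron and heme genes among them, and Hamp was at 0.16 and Hmox1 at 0.45. Not every sample correlated best with its own number. Group sizes of 5 and 3 limit what could be detected, and Hamp, Hamp2 and Alas1 had the widest WT spread of the 10 genes.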
